A study of Mus musculus with 2 samples.

Results

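DNase I cuts accessible DNA, and a protein that sits on that DNA shields a short stretch, which appears as a run of few cuts called a footprint. The regions described here are the long footprints of mouse left cerebral cortex, those at least 25 bp wide. They were chosen by width and by recurrence: a footprint had to lie on an autosome, span at least 25 bp, and overlap a footprint of at least 25 bp in the other library by at least 50% of the width of each. This rule left 8559 pairs of footprints, out of 13144 long footprints in replicate 1 and 12706 in replicate 2, and out of 332735 autosomal footprints in both libraries together. They were set against 12502 pairs of short footprints, 7 to 10 bp wide in both libraries and paired by the same overlap.

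The series holds 2 DNase-seq libraries, labelled biological replicates 1 and 2, both from left cortex of male B6CASTF1/J mice aged 8 to 10 months. These animals are hybrids of C57BL/6J and CAST/EiJ, came from The Jackson Laboratory, and the labels name no treatment or engineered allele. The 2 libraries have separate biosample identifiers but the same donor identifier, so if that identifier stands for 1 animal, variation between animals is not included. Since there is 1 group, every comparison below is between classes of footprints within each library. The tissue holds many cell types, and in bulk DNA a site open in few cells cannot be told apart from a site weakly open in many. Footprint positions, peaks and cut statistics were used as deposited, on mm10, and read depth is not known from these files. Values are given for replicate 1 and then replicate 2 where they differ. The 2 libraries were required to share the footprints, so the closeness of their values is partly set by that rule.

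CTCF is a zinc-finger protein that binds a long DNA site, marks insulators and holds the ends of chromatin loops, and part of its zinc fingers can contact a separate element upstream of the core site. At promoters, the CCAAT box is bound by NF-Y, GC boxes by SP and KLF factors, the cAMP response element (CRE) by CREB and ATF proteins, and a palindromic GC-rich site by NRF1. Transfer RNA genes are transcribed by RNA polymerase III, which is recruited through TFIIIC on the A box and B box inside the gene and through TFIIIB just before it.

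The sequences that carry the results below are shown here, each over the stretch covered by its footprints in the 2 libraries, in lower case, from 5′ to 3′ on the named strand of the mm10 reference genome. The reference is the C57BL/6J sequence, and CAST/EiJ alleles were not separated. The first set holds CTCF sites with footprints of 25 to 34 bp in both libraries, named by the nearest protein-coding gene, with the CTCF core in capitals.
Olfr750 (chr14:51064951-51064978, minus strand): gtccttCCAGCAGATGGCgctcccgaac
Kif1b (chr4:149307903-149307933, minus strand): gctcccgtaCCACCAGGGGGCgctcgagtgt
Scap (chr9:110333248-110333277, plus strand): ggggaCCACCAGGGGGCgaacccgagccgt

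The second set holds CTCF sites with footprints of 39 to 48 bp in both libraries. The core is again in capitals, and in the first 3 sites the upstream element GCAGTNC is in capitals too. These show how the extra width lies on the 5′ side of the core.
Ccdc8 (chr7:16999837-16999882, minus strand): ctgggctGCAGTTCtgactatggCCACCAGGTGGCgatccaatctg
Eef2kmt (chr16:5306752-5306797, plus strand): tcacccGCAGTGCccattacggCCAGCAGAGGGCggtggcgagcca
Prok2 (chr6:99804407-99804454, plus strand): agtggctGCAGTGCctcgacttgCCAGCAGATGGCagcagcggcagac
Faf2 (chr13:54621664-54621708, minus strand): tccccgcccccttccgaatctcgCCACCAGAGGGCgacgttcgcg
Chd2, distal (chr7:73618504-73618550, minus strand): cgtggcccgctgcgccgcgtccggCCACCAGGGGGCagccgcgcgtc

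The third set holds footprints at gene starts, with the motif in capitals: the CCAAT box on either strand for Flad1, Ccdc66 and Abhd2, the NRF1 site for Opa1, the GC box for Nup107 and the CRE for Ube2h.
Flad1 (chr3:89411889-89411946, minus strand): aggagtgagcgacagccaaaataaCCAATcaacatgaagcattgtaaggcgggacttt
Ccdc66 (chr14:27508492-27508564, minus strand): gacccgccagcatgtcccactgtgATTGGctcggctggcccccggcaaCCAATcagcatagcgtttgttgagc
Abhd2 (chr7:79273037-79273086, plus strand): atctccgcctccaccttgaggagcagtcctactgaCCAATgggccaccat
Opa1 (chr16:29579271-29579310, plus strand): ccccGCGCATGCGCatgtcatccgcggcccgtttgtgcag
Nup107 (chr10:117792858-117792891, minus strand): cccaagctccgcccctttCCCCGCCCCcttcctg
Ube2h (chr6:30304549-30304586, minus strand): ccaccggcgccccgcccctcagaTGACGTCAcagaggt

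The last set holds both footprints of an arginine tRNA gene, n-TRccg1. In the first, the capitals mark the bases that lie inside the gene, and in the second they mark the B box.
n-TRccg1, upstream (chr11:107012816-107012869, plus strand): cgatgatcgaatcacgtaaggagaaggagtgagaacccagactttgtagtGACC
n-TRccg1, within the gene (chr11:107012898-107012932, plus strand): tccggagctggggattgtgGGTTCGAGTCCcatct

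Long footprints recurred between the libraries more often than narrower ones, although the wider a footprint is, the more room it has to meet the overlap rule. Of the long footprints, 65.1% in replicate 1 and 67.4% in replicate 2 had a long partner, against 12.7% and 11.7% of the short footprints with a short partner. When any overlap with any footprint of the other library was counted, the shares were 95.6% and 98.1% of the long footprints, against 30.3% and 28.1% of the short ones. The median width of the paired long footprints was 32 bp in replicate 1 (quartiles 28 and 39) and 34 bp in replicate 2 (quartiles 29 and 42), and the widest spanned 77 bp and 81 bp. Within a pair the 2 widths were equal in 1110 cases (13.0%) and within 5 bp in 6278 (73.3%), with a median difference of 3 bp. Both ends fell on the same bases in 679 pairs. Across the 8559 pairs the widths had a Pearson correlation of 0.63, over regions that are not independent replicates. Just outside the threshold, 1817 pairs had a smaller width of 23 or 24 bp, and just inside it 1575 pairs had 25 or 26 bp, so the threshold runs through a continuous range. The pairs just inside it held a CTCF core (up to 1 mismatch) in 40.6% of cases and lay near a gene start in 51.9%, against 35.3% and 55.1% of the pairs just outside. The median strength of their peaks, a deposited signal value, was 2.27 and 2.14 just inside, against 2.46 and 2.27 just outside.

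**Figure D1:**
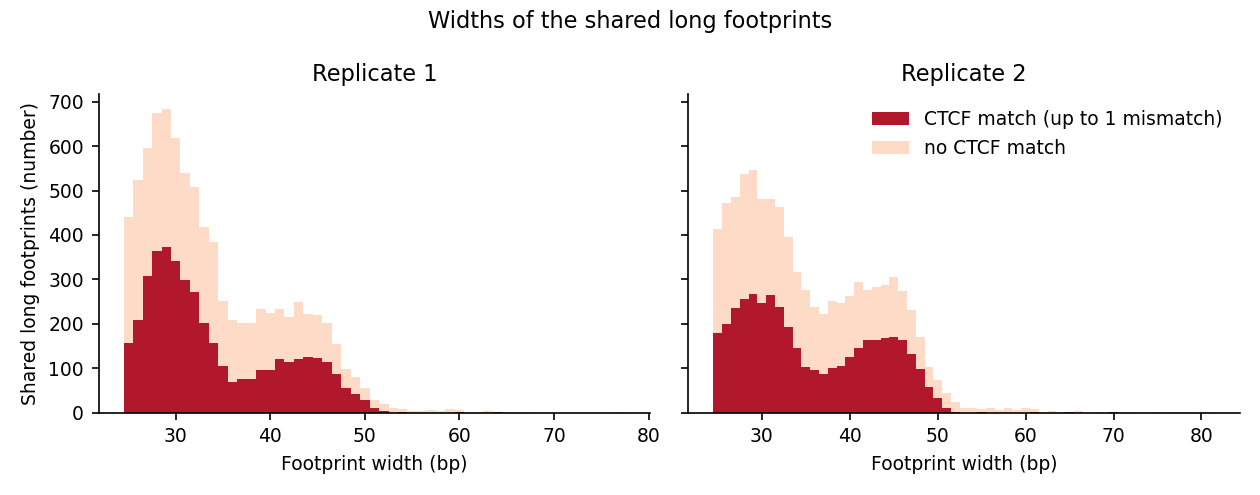
Number of paired long footprints by width in bp, replicate 1 and replicate 2, with the pairs that hold a CTCF core (up to 1 mismatch) drawn apart from the rest. The CTCF-bearing footprints form a main mode at 25 to 34 bp and a further one at 39 to 48 bp in both libraries.

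CTCF sites were the most frequent feature of the long footprints. The CTCF core, searched on both strands with its centre within 30 bp of the footprint's midpoint, had an exact match at 1771 and 1773 of 8559 long footprints, 20.7% in both libraries (95% Clopper-Pearson interval 19.8 to 21.6% in replicate 1), against 234 of 12502 short ones (1.87%, 1.64 to 2.13%). With up to 1 mismatch the core lay at 4158 and 4159 long footprints (48.6%, 47.5 to 49.7%), against 673 short ones (5.38%, 4.99 to 5.79%). Both classes were searched over the same 61 bp, which gave each class the same room for a match. Windows of the same length centred 200 bp to either side of the long footprints held the core with up to 1 mismatch in 0.613% and 0.637% of cases, against 0.968% and 0.952% beside the short ones. Footprints of 11 to 24 bp that were paired by the same rule lay between the classes, with exact matches at 3.72%. All autosomal footprints, paired or not, held the core with up to 1 mismatch in 10.1% and 8.395% of cases. Their exact matches lay at 3.65% and 2.99%. These shares were above those of the paired short footprints and below those of the long ones.

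The difference in CTCF content was present at every level of peak strength. Strength is here the deposited signal value of the strongest peak of the stricter peak list that holds the footprint's midpoint. In peaks with a strength under 1.5, 72.3% and 74.5% of the long footprints held the core, against 9.86% and 9.11% of the short ones. At a strength of 1.5 to 3 the shares were 64.1% and 60.2% of the long footprints, against 4.25% and 2.88% of the short ones. Over 3 they were 18.1% and 20.5% of the long footprints, against 1.54% and 1.64% of the short ones. In each of these ranges the long footprints held the core more often, and among them the share was lowest in the strongest peaks.

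**Figure D2:**
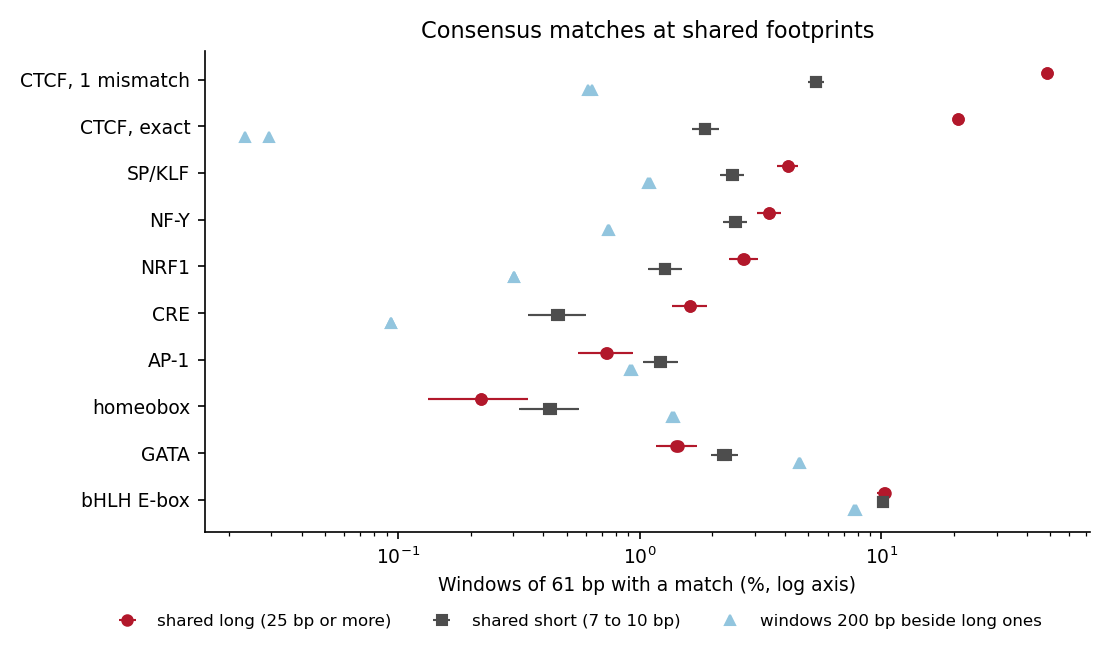
Share of 61 bp windows with each motif, in percent on a log axis: red circles for long footprints and grey squares for short ones (both libraries drawn, with 95% Clopper-Pearson intervals), and blue triangles for windows 200 bp beside long footprints. CTCF stands apart, with 48.6% of long against 5.38% of short footprints when 1 mismatch is allowed.

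Long footprints with a CTCF core fell into 2 width modes. Footprints of 25 to 34 bp numbered 2681 in replicate 1 and 2226 in replicate 2, and those of 39 to 48 bp 1060 and 1436. The widths between them, 35 to 38 bp, are a shorter range and held 328 and 388. At single widths the numbers were 374 and 267 at 29 bp, 76 and 87 at 37 bp, and 124 and 170 at 45 bp. The lower end of the narrower mode, 25 bp, is the threshold of the rule. Of the 4156 footprints with the core in both libraries, 1962 were in the narrower mode in both and 827 in the wider mode in both. A further 453 were narrower in replicate 1 and wider in replicate 2, against 116 the other way round. The width mode is therefore not a fixed property of every site in these files, and the wider mode was more frequent in replicate 2.

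The 2 modes differed at 1 edge. Measured from the centre of the core along its own strand, the 3′ edge lay a median of 15.5 bp and 16.5 bp away in the wider mode, against 16.5 bp in both libraries in the narrower mode. The 5′ edge lay 27.5 bp away in the wider mode in both libraries, against 10.5 bp and 11.5 bp in the narrower mode. The extra width thus lay on the 5′ side of the core. That is where the upstream element lies: GCAGTNC, on the strand of the core and 10 to 30 bp before its centre, was present at 16.1% and 13.9% of the sites in the wider mode (95% intervals 13.97 to 18.5% and 12.1 to 15.8%), against 2.98% and 2.47% in the narrower mode (2.37 to 3.70% and 1.87 to 3.204%). On the opposite, 3′ side the same letters were found at 0.755% and 0.696% of the wider sites, against 0.970% and 1.03% of the narrower ones. Of the 292 CTCF-bearing long footprints with the element, 237 had it at a single spacing, 18.5 bp between the centres, and 29 at 19.5 bp. Most sites of the wider mode had no exact match to these letters, as shown by Faf2 and the distal Chd2 site above, and a looser match was not searched.

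**Figure D3:**
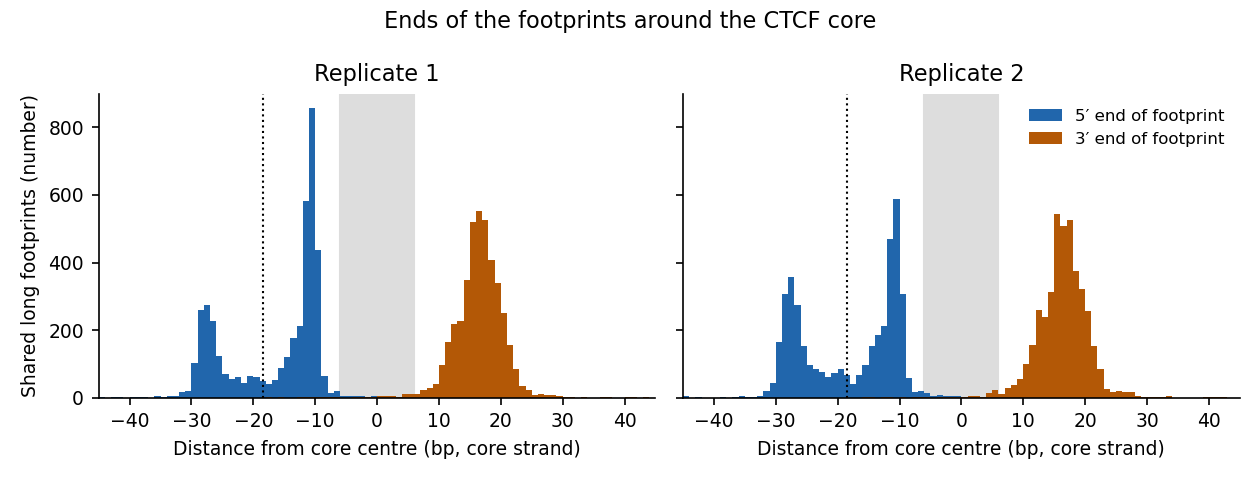
Number of CTCF-bearing long footprints by the distance in bp of their 5′ end (blue, negative) and 3′ end (orange) from the centre of the core, by library, with the core shaded and the most frequent position of the upstream element dotted. The 3′ end has 1 mode, near its median of 16.5 bp, while the 5′ end has a mode near 10.5 bp and another near 27.5 bp.

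The printed CTCF sites illustrate the modes. The site nearest Olfr750, an olfactory receptor gene, had footprints of 28 bp and 27 bp in a peak of strength 5.75 and 6.96, at a distance of 6478 bp from that gene's start in intergenic DNA. The sites just upstream of Kif1b, which encodes a kinesin motor for axonal transport, and of Scap, which escorts the sterol-sensing SREBP proteins, had footprints of 31 bp and 30 bp and of 30 bp and 29 bp. Both lie within 1000 bp of the start, with midpoints at -226 bp for Kif1b and -26 bp for Scap. The wider sites with the upstream element nearest Ccdc8, Eef2kmt and Prok2 had footprints of 45 to 48 bp and strengths of 3.48 and 4.81, 3.46 and 4.53, and 3.25 and 4.60. Among the strongest peaks with an exact core were those at Faf2, which acts in protein degradation at the endoplasmic reticulum (6.74 and 6.53), and Stag1, a cohesin subunit (7.16 and 6.41), whose footprints of 45 bp and 44 bp and of 46 bp and 45 bp lay at -98 bp and -40 bp. A further one lay in an intron of Camta1, a calmodulin-binding transcription activator, with widths of 47 bp and 49 bp and strengths of 6.46 and 8.55. At least 2 cores, with up to 1 mismatch each, were present at 128 and 125 long footprints (1.496% and 1.46%), against 21 and 20 short ones (0.168% and 0.160%). By the smaller width of each pair, the widest CTCF-bearing footprint was of that kind: it spanned 64 bp and 65 bp in an intron of Col18a1, which encodes a basement membrane collagen chain.

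Long footprints lay near gene starts less often than short ones. A midpoint within 1000 bp of any GENCODE M21 transcript start was found for 3677 and 3678 of the long footprints (43.0%, 41.9 to 44.0%), against 7608 and 7609 of the short ones (60.9%, 59.99 to 61.7%), a difference of -17.9 percentage points (95% Newcombe interval -19.2 to -16.5). The size of this difference depended on the pairing. Without pairing, 44.7% and 48.6% of the long footprints lay near a start, against 53.4% and 55.6% of the short ones. The differences were then -8.65 and -7.01 percentage points. Of all autosomal footprints, paired or not, 88507 of 162348 and 97121 of 170387 lay near a start. These shares lie between those of the 2 paired classes. Away from starts, more of the paired long footprints were intergenic, 29.8% against 18.6% of the paired short ones, and more lay in introns, 23.4% against 17.2%. Coding exons beyond the start windows held 0.841% and 0.865% of the long footprints, against 1.60% and 1.58% of the short ones. These intervals treat footprints as separate draws and cover counting error only, while neighbouring footprints share a peak: the 8173 long footprints of replicate 1 inside a peak of the stricter list lay in 7605 peaks, of which 516 held at least 2.

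The location of the long footprints differed with and without a CTCF core. Of the CTCF-bearing ones, 18.01% lay near a start, while 41.8% were intergenic and 34.8% in introns. Without footprints that hold a CTCF core in either class, 66.5% and 66.6% of the long footprints lay near a start, against 63.3% of the short ones in both libraries. The difference then had the opposite sign, 3.27 percentage points in replicate 1 (1.62 to 4.90) and 3.29 in replicate 2 (1.64 to 4.92). This split was chosen after the data had been seen, and it does not remove sites with more than 1 mismatch. The letters AGGGGGCG, which include the end of the core, still lay at more long footprints. Away from starts they lay at 4.75% and 4.76% of the long footprints without a core, against 0.805% and 0.806% of the short ones. Near starts the shares were 6.63% and 6.62%, against 1.92% and 1.90%. The same letters can overlap a GC box of SP and KLF factors (GGGGCGGGG), so near starts the 2 kinds of site cannot be told apart by them. There GGGCGGGG, a part of the GC box, lay at 16.6% of the long footprints without a core in both libraries, against 5.57% and 5.60% of the short ones. In base composition, the median GC content of the footprints was 63.6% and 63.0% for the long ones, against 70% for the short ones in both libraries, but over the same 61 bp it was 59.0% in both classes.

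Peaks around long footprints were stronger than those around short ones, but not stronger than those around footprints of intermediate width. A peak of the stricter list held 95.5% and 94.3% of the long footprints, against 69.4% and 68.4% of the short ones. The median strength of those peaks was 2.38 in both libraries (quartiles 1.64 and 3.85 in replicate 1) around long footprints, against 1.82 and 1.81 (quartiles 1.17 and 2.99 in replicate 1) around short ones. Around paired footprints of 11 to 24 bp it was 2.83 and 2.51, above both. Near gene starts the medians were 3.87 and 3.49 around long footprints, against 2.37 and 2.17 around short ones, and elsewhere 1.86 in both libraries against 1.26 and 1.20. The long footprints thus lay in stronger peaks both at starts and away from them. Within the long footprints, those with a CTCF core had medians of 1.87 and 1.85, against 3.47 and 3.26 for those without. Footprints were drawn from the cut statistic and the reads of the same library, so peak strength and width are not independent measures. The cut statistic itself reached a median −log10 FDR of 14.3 and 14.6 in the long footprints, against 7.15 and 6.95 in the short ones, which describes how the footprints were drawn and was not tested.

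**Figure D4:**
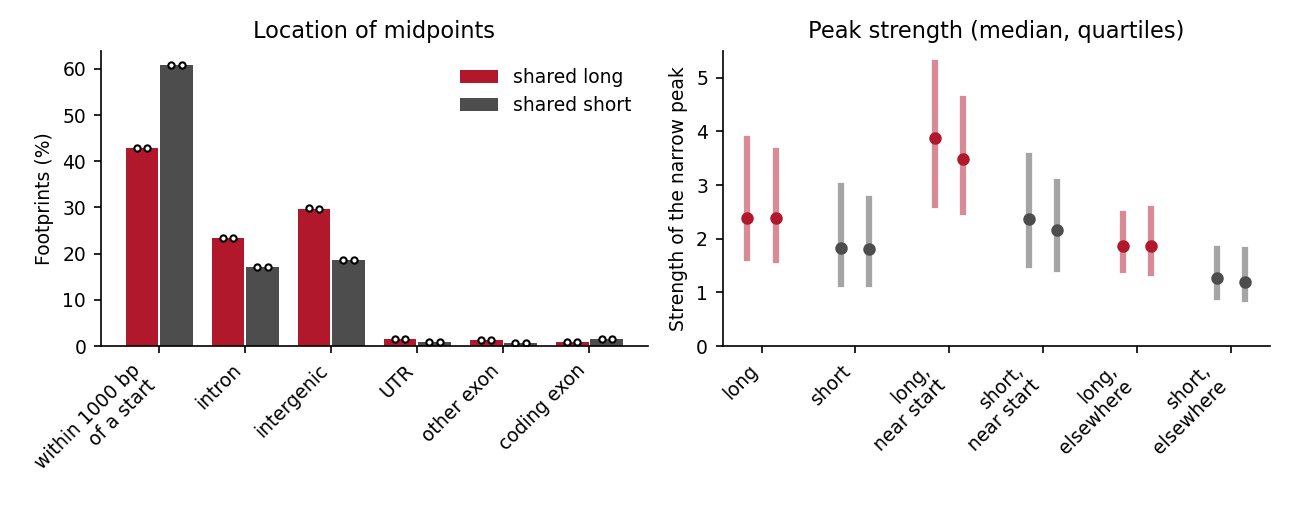
Left, share of footprints in each location class in percent, with bars for the mean of the 2 libraries and circles for each. Right, median peak strength (points) with quartiles (lines) for each library, over all footprints, near gene starts and elsewhere. Near a start lie 43.0% of the long footprints, against 60.9% of the short ones, and median strengths are higher around long footprints in both places.

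At gene starts, long footprints without a CTCF core held several promoter motifs more often than short ones. Of 2928 and 2929 such long footprints within 1000 bp of a start, 11.1% in both libraries held the GC box GGGGCGGGG of SP and KLF factors (10.0 to 12.3%), against 3.49% and 3.47% of the short ones near a start without a CTCF core (3.08 to 3.93% in replicate 1). The NRF1 site was present at 7.27% and 7.17% of the long footprints (6.36 to 8.28% in replicate 1), against 1.84% of the short ones in both libraries (1.55 to 2.18% in replicate 1). The CRE, TGACGTCA, was present at 4.44% of the long footprints in both libraries (3.72 to 5.25%), against 0.535% and 0.548% of the short ones (0.382 to 0.727% in replicate 1). The NF-Y site, CCAAT with its flanks, was present at 8.74% and 8.67% of the long footprints, against 3.39% of the short ones in both libraries. The plain letters CCAAT lay at 19.4% and 19.7% of these long footprints, against 9.68% and 9.78% of the short ones. Among those of at least 50 bp the share was 34.6% of 81 footprints in replicate 1 and 41.5% of 123 in replicate 2, with intervals of 24.3 to 46.0% and 32.7 to 50.7%.

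Not all of these motifs became more frequent with width. Over all footprints of replicate 1, the NRF1 site was present at 0.928% of those of 7 to 10 bp, at 5.63% of those of 19 to 24 bp and at 3.46% of those of 25 to 29 bp. In replicate 2 the same bins had 0.870%, 5.84% and 3.68%. The GC box had the same order, with 2.17%, 7.61% and 4.92% in replicate 1. So did the NF-Y site, with 1.93%, 3.92% and 3.09% in replicate 1 and 1.68%, 3.83% and 3.47% in replicate 2. The CRE differed less between the last 2 bins, with 1.57% and 1.66% in replicate 1 and 1.88% and 1.82% in replicate 2. Over the same bins of replicate 1 the CTCF core with up to 1 mismatch was present at 5.03%, 18.3% and 40.9%. These bins hold footprints at all locations, with or without a CTCF core. Near a start lay 53.4%, 62.0% and 47.9% of them in replicate 1. Paired footprints of 11 to 24 bp held the NRF1 site at 6.07%, above the 2.71% and 2.68% of all long footprints, and 70.6% of them lay near a start. Over all locations, the NRF1 site, the GC box and the NF-Y site were therefore more frequent just below the threshold of 25 bp than just above it. The CTCF core was more frequent above it. Among still wider footprints the share with an NF-Y site was uneven. It was 4.28% and 4.31% at 35 to 39 bp, and 2.91% and 2.48% at 45 to 49 bp. The NF-Y share was highest at 50 bp or more, with 8% of 175 footprints in replicate 1 and 8.99% of 278 in replicate 2.

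Several motifs were no more frequent, or less frequent, in long footprints. Over all locations the AP-1 forms TGACTCA and TGAGTCA lay at 0.736% and 0.724% of long footprints, against 1.22% and 1.23% of short ones. The homeobox letters TAATTA lay at 0.222% of the long footprints in both libraries, against 0.424% and 0.432% of the short ones. The E-box forms of neuronal bHLH factors (CAGATG, its reverse CATCTG, and also the palindromes CAGCTG or else CATATG) lay at 10.3% and 10.2% of long footprints, against 10.2% of short ones in both libraries. The CTCF core can itself hold such letters, as at Olfr750 above, and without CTCF-bearing footprints in either class the shares were 6.84% and 6.75% of the long footprints, against 9.72% and 9.76% of the short ones. That is a difference of -2.88 percentage points in replicate 1 (-3.78 to -1.94) and -3.01 in replicate 2 (-3.90 to -2.07). The long site of REST, a repressor of neuronal genes, had an exact match at 2 long footprints and 3 short ones, too few to set apart. In all, 24 motifs were searched, and a match describes the letters only.

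At promoters the long footprints also lay just before the start more often than the short ones. Of the long footprints without a CTCF core near a start, 45.7% and 45.9% had their midpoint in the 100 bp before a protein-coding transcript start, against 22.8% of the short ones in both libraries, a difference of 22.9 percentage points in replicate 1 (20.8 to 24.9) and 23.1 in replicate 2 (21.05 to 25.1). In the 100 bp after the start the order was the other way, with 12.9% and 12.7% of the long footprints, against 20.3% and 20.4% of the short ones. The position before the start was not particular to long footprints. Over all locations, with CTCF-bearing footprints kept, it held 26.1% and 25.9% of the paired footprints of 11 to 24 bp. The same share was 17.5% of the long and 13.8% of the short footprints in both libraries. These classes differ in how many lie near a start. Of the long footprints near a start, 1496 of 3677 and 1501 of 3678 had that position (40.7% and 40.8%). Of those of 11 to 24 bp near a start, 4100 of 11087 and 4075 of 11088 had it, a lower share. Among the strongest promoter footprints with an NF-Y site were those of Flad1, an FAD synthase, at -47 bp with widths of 57 bp and 58 bp and strengths of 9.67 and 9.90, and of Ccdc66, a centrosomal and ciliary protein, at -64 bp with widths of 66 bp and 71 bp and strengths of 9.50 and 10.6. The Ccdc66 footprint covers a CCAAT box on each strand, as its sequence above shows. At Opa1, a GTPase of mitochondrial fusion, a footprint of 30 bp and 40 bp lay over the NRF1 site at -49 bp. At Nup107, a nuclear pore subunit, a GC box footprint of 34 bp and 32 bp lay at -169 bp, and a second footprint of 35 bp and 32 bp with an NRF1 site lay at -105 bp in the same peak (strength 9.71 and 7.93). At Ube2h, a ubiquitin-conjugating enzyme, a footprint of 37 bp in both libraries lay over the CRE at -28 bp.

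tRNA genes carried paired long footprints more often than paired short ones. Of 386 autosomal tRNA genes in the RefSeq annotation of GRCm38.p6, 99 in replicate 1 and 107 in replicate 2 overlapped a paired long footprint (25.6% and 27.7%), against 15 genes with a paired short footprint in both libraries (3.89%). Paired footprints of intermediate width overlapped 49 and 50 of these genes (12.7% and 12.95%). All autosomal footprints, paired or not, overlapped 209 and 226 of them (54.1% and 58.5%). Of all autosomal footprints 0.253% lay on a tRNA gene in both libraries, against 1.32% and 1.52% of the paired long ones. Any overlap was counted, so a wide footprint had more room to meet a gene than a narrow one. The long footprints on tRNA genes numbered 113 and 130, and their median width was 36 bp and 39 bp. Of these, 29 and 46 had their midpoint before the gene, and 84 in both libraries had it beyond the middle of the gene. Among all long footprints, also those beside a tRNA gene that do not overlap it, 2 positions stood out. Midpoints of 107 and 105 long footprints lay in the 100 bp before a tRNA gene, at medians of -29 bp and -26 bp, against 18 short ones in both libraries. Midpoints of 83 long footprints in both libraries lay 40 to 80 bp into the gene, at a median of 57 bp, against 8 short ones. None of the long footprints had its midpoint in the first 40 bp of a gene, against 5 short ones, and 43 genes had a long footprint at both positions, against 0 with a short one at both.

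The position within the gene is where the B box lies. The B box letters lay at 74 long footprints, of which 73 were on tRNA genes, against 10 and 11 short ones. At n-TRccg1 the upstream footprint spanned 54 bp and 53 bp and ended just inside the gene, and the internal one, over the B box, spanned 35 bp and 33 bp; both lay in a peak of strength 7.43 and 7.04. Peaks on tRNA genes had a median strength of 3.38 and 4.70 around the long footprints there. Copies of tRNA genes resemble each other, and 39 and 43 of these footprints (34.5% and 33.1%) lay over DNA in which at least 50% of the overlapping 36-mers occur elsewhere in the genome, and the part of read placement in them was not tested. Without them, 74 and 87 long footprints remained on 68 and 71 tRNA genes, against 13 short ones on 13 genes. No long footprint on a tRNA gene was repeated in this sense at 50 bases, and the read length is not given in the sources used here.

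**Figure D5:**
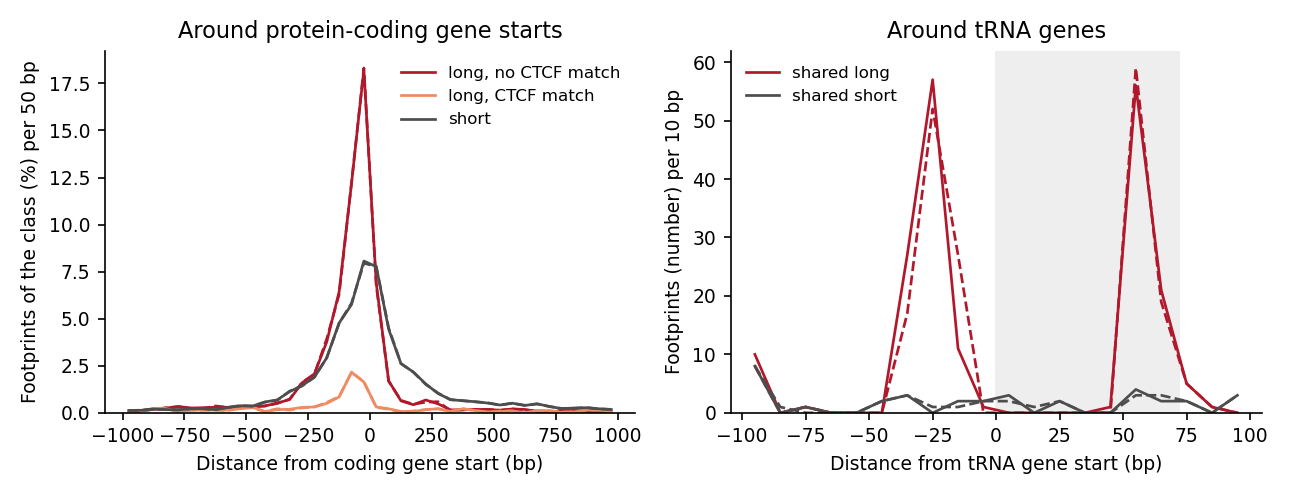
Left, share of each class of footprints in percent per 50 bp around the nearest protein-coding start, for long footprints without and with a CTCF core and for all short ones. Right, number of long and short footprint midpoints per 10 bp around tRNA gene starts, with the gene body shaded; solid lines are replicate 1 and dashed lines replicate 2. Long footprints gather just upstream of coding starts, and on tRNA genes at 2 positions, near -29 bp and near 57 bp.

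The widest footprints lay near starts and on tRNA genes more often than all paired long footprints, and held a CTCF core less often. Of 100 pairs at least 50 bp wide in both libraries, 56 lay near a start, 20 and 18 lay on a tRNA gene and 15 held a CTCF core, and the median strength was 5.37 and 5.80. Of all paired long footprints, 43.0% lay near a start, 1.32% and 1.52% lay on a tRNA gene and 48.6% held a CTCF core. The widest pair spanned 77 bp and 75 bp in intergenic DNA nearest to Pdia4, but all of its 36-mers occur elsewhere in the genome. The next were the footprint of Ccdc66 and one of 67 bp and 65 bp, 21 bp from the start of Rn7s2, a copy of the 7S RNA of the signal recognition particle. The upstream footprint of n-TRtcg5, close to Polg, the mitochondrial DNA polymerase gene, spanned 60 bp and 61 bp in a peak of strength 7.87 and 9.71. The strongest peaks around long footprints were in part repeated DNA: the strongest, nearest to Igf2bp3, had strengths of 22.6 and 39.9 and 2 long footprints, with 84.2% and 6.94% of 36-mers repeated. The footprint in Il31ra (15.6 and 31.2) had 100% of its 36-mers repeated, and that in Gphn (12.5 and 19.5), which encodes a scaffold protein of inhibitory synapses, had 77.5%. Without any repeated 36-mers, the strongest pair was at the start of Wwox, an oxidoreductase gene, with widths of 53 bp and 52 bp and strengths of 11.95 and 12.5. Repeat-masked bases made up more than 50% of the footprint in 5.94% and 5.70% of the long footprints, against 6.16% and 6.26% of the short ones. Over all long footprints, 1.38% and 1.47% lay over repeated 36-mers, against 1.16% and 1.17% of the short ones.

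The 8559 long footprints had 6068 nearest protein-coding genes, 29.2% of 20780, while the 12502 short ones had 7411, 35.7%. Most of these genes, 4301, had a single long footprint, and 489 had at least 3. The genes with most were Abt1, Zfp516 and Cfap126, with 9 each, of which 6 near Abt1 and 4 near Cfap126 lay on tRNA genes. Lsamp, a limbic cell adhesion protein, had 7 spread over 2188 kb, of which 5 held a CTCF core. At the start itself, within 1000 bp, 2612 protein-coding genes had a long footprint (12.6%), against 4946 with a short one (23.8%).

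Gene lists were read against those shares. Of 15 clock genes 7 had a long footprint at the start, against 10 with a short one. They included Nr1d1, a repressor of the clock loop, at -94 bp with widths of 32 bp and 36 bp and strengths of 7.83 and 6.42, and Per2, a core clock repressor, at -91 bp with widths of 29 bp and 32 bp and strengths of 6.81 and 5.76. Of 20 activity-regulated genes 6 had a long footprint at the start, against 9 with a short one. Jun had widths of 32 bp and 36 bp at 37 bp after its start, and Egr1 27 bp and 29 bp at -61 bp; both are immediate early transcription factors. Of 25 ribosomal protein genes 6 had a long footprint at the start, against 11 with a short one. That of Rplp0, a ribosomal stalk protein, spanned 41 bp in both libraries at -87 bp in a peak of strength 10.98 and 9.90. Of 19 REST target genes 1, Chga, a granule protein of neuroendocrine cells, had a long footprint at the start, against 12 with a short one. Of 24 pan-neuronal and synaptic genes, 22 of them with a promoter peak in each library, 2 had a long one, against 11 with a short one. Long ones lay at the start of 5 of 19 mitochondrial respiratory chain, 4 of 14 proteasome, 4 of 17 imprinted and 0 of 10 clustered protocadherin genes. Short ones lay at 7, 8, 4 and 2 of them. Of 14 heat shock and chaperone genes 5 had a long one, against 11 with a short one, among them Hspa8 at -39 bp with widths of 38 bp and 43 bp. All 15 clock, 20 activity-regulated, 25 ribosomal protein, 19 REST target and 14 chaperone genes had a peak at the promoter in replicate 1 and in replicate 2, against 11643 of all 20780 protein-coding genes, so these lists start above that background in accessibility.

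Markers of cell types were few, and their counts are a description beside the 11643 of 20780 protein-coding genes with a promoter peak in each library. Among excitatory neuron markers 5 of 8 had an accessible promoter, with a peak there in each library. Among astrocyte markers 3 of 6 had such a promoter, as did 1 of 5 oligodendrocyte and 1 of 4 endothelial markers. None of the 8 inhibitory neuron, 6 microglia, 4 liver or 3 erythroid markers had one, against 2 of 4 skeletal muscle markers. Markers that were the nearest gene of at least 1 long footprint, at any distance, numbered 7 of 8 excitatory neuron, 5 of 6 astrocyte, 3 of 6 microglia, 2 of 5 oligodendrocyte, 2 of 8 inhibitory neuron and 0 of 4 endothelial ones, beside 29.2% of all protein-coding genes. For short footprints the counts were 5 of 8 excitatory neuron, 4 of 6 astrocyte, 0 of 6 microglia, 4 of 5 oligodendrocyte, 2 of 8 inhibitory neuron and 1 of 4 endothelial markers, beside 35.7% of all. Of the markers of other tissues, 1 of 4 liver, 1 of 3 erythroid and 0 of 4 skeletal muscle ones were nearest to a long footprint. With a short footprint they numbered 2 of 4, 1 of 3 and 0 of 4. At the start itself, within 1000 bp, a short footprint lay at 1 of 8 excitatory neuron, 2 of 6 astrocyte and 1 of 8 inhibitory neuron markers. It also lay at 1 of 5 oligodendrocyte, 1 of 4 endothelial and 0 of 6 microglia markers, beside 23.8% of all protein-coding genes. A long footprint lay there at 1 of 8 excitatory neuron and 1 of 6 astrocyte markers and at 0 of the other markers, beside 12.6% of all. Distal examples were one of 33 bp and 30 bp at -8938 bp from Neurod2, a neuronal bHLH factor, and another, with a CTCF core and widths of 29 bp and 34 bp, at -8102 bp from Sst, the somatostatin gene. The part of each cell type in these footprints was not tested.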

How the data were processed

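DNase-seq footprints, peaks and cut statistics of 2 left cortex libraries were used as deposited, on mm10, per the labels and the notes deposited with the samples. Footprints were made by the authors per library from the cut statistic and the filtered reads; their value column is constant, so only positions were used. Peak strength is the signal value the authors deposited, in a stricter and a broader peak list, with its normalization not given. The cut statistic is a deposited FDR (an adjusted p-value) that lists values under 0.05. The sources used here do not name the aligner, the callers or the read length.

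Footprints were paired, annotated with GENCODE M21 and RefSeq, and searched for 24 motifs fixed by consensus in Python 3.11.15 with numpy 2.4.6, pandas 2.3.3, scipy 1.17.1 and numba 0.67.0. The search steps were tested on simulated data. The members, lists and motifs were chosen with earlier results of these data known. The CTCF upstream element, the B box, the plain CCAAT letters and the tRNA positions were added after seeing the data. Genes named are among the widest and strongest members, the genes with most members, the strongest of each gene list and motif, and the examples whose sequences are shown. Intervals are 95% Clopper-Pearson or Newcombe and cover counting error only. Read depth is unknown.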

Additional observations from a re-analysis of the deposited data

How the results depend on the processing

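No paired analysis was possible because the 2 libraries form 1 group, and no groups of samples are compared. The rule that pairs footprints keeps the 2 libraries close, so even small shifts exceed the spread between them. Each value below is a mean over the 2 libraries, except the ranges over single libraries, and none was tested.

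With an overlap of 80% of both footprints there were 6545 long pairs, 43.1% near a start, a difference from short ones of -13.8 percentage points, a median strength of 2.44 and an exact CTCF core at 21.03%. With 1 shared base the pairs numbered 8626, with 43.1% near a start, a difference of -17.9 points and the core at 20.6%. A minimum width of 30 bp gave 4711 pairs, 40.7% near a start, -20.1 points, a strength of 2.61, a GC content of 61.2% and the core at 19.6%. A minimum of 20 bp gave 13291 pairs, 49.3%, -11.6 points, 2.44, 65.3% and 17.5% for the same quantities. With all long footprints of 1 library and no pairing, there were 12706 to 13144, 44.7 to 48.6% near a start, -8.65 to -7.01 points, a strength of 2.24 to 2.37, a GC content of 63.8 to 64.3% and the core at 16.7 to 18.4%.

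The share near a start was 38.5% within 500 bp and 36.4% for protein-coding starts alone. The difference from short footprints was -16.8 points within 500 bp, -22.7 points for midpoints in a peak of the stricter list and -27.6 points against footprints of 11 to 24 bp. In alternatives chosen after seeing the data, it reversed to 3.28 points without CTCF-bearing footprints in either class; the median strength was then 3.36. Median strength was 2.34 in the broader peak list, 3.68 within 1000 bp of a start and 1.86 elsewhere. GC content over 61 bp was 59.0%. The CTCF core was present at 48.6% with 1 mismatch and at 20.8% with its centre within 50 bp. Any masked base was found in 10.6%, and repeated 50-mers in 0.514%. Without repeated 36-mers, also chosen after seeing the data, 43.0% lay near a start, 20.96% held the core and a mean of 80.5 lay on tRNA genes, against 121.5 with them.

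Read depth, read length and the footprint caller's settings are not known here. Exact letters miss weaker sites. Footprints that share a peak or a repeat family are not independent, and with the same donor identifier on both libraries the spread between animals was not measured.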
